A study of Mus musculus with 6 samples.

Results

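The germ cell RNA-binding proteins described here are Nanos2, Ddx4, Ddx25, Dazl, Elavl2, Stk31 and Rnf17, measured in fetal mouse testes with and without Dmrt1. Members were taken by name: every probe set whose platform annotation gave exactly 1 gene symbol, equal to one of these 7, was included. That rule found 15 of the 45101 probe sets on the array, for 6 of the 7 genes, and no probe set carried the symbol Nanos2. Of the 15, 12 passed a filter on low signal (a mean log2 intensity of at least 4 over all arrays) and were tested, with at least 1 for each of the 6 genes.

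The samples were 3 Dmrt1 null and 3 control testes of mouse embryos at E13.5, all outcrossed to 129S6/SvEvTac, 1 array each. Null testes are homozygous for loss of Dmrt1 by title and description, whereas the genotype entry reads Dmrt(flox/flox). The sources used here name no Cre driver. Controls carry a wild type title but are Dmrt1 heterozygotes by description, genotype entry and series design. The comparison may therefore be of 0 against 1 working copy of Dmrt1, a transcription factor of Sertoli and germ cells. Each sample is labelled a biological replicate, and the labels do not say whether embryos were pooled or came from separate litters, so p-values measure the spread between these samples. The design asks what loss of Dmrt1 does to testis expression on a background in which mutants often form teratomas.

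Fetal germ cells rely heavily on control of mRNA after transcription. DDX4, the mouse homologue of Vasa, and DDX25 are DEAD-box RNA helicases, DDX4 being a component of germ granules. DAZL binds the untranslated ends of germ cell mRNAs, regulates their translation, and is needed for germ cells to take up their sex-specific development. NANOS2 appears in male fetal germ cells, recruits the deadenylation machinery to its target mRNAs and suppresses meiosis. ELAVL2 belongs to the Hu family, which binds AU-rich elements, and is made in neurons as well as gonads. STK31 and RNF17 contain tudor domains, which bind methylated arginines of granule proteins. Whole testes were measured, so fewer germ cells and less RNA per germ cell cannot be told apart.

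Promoter sequences from RefSeq (build GRCm38.p6, from 250 bases before to 50 after each start site) were found for 6 of the 7 genes, all but Rnf17, in 12 windows. They are shown because Ddx4, Ddx25 and Stk31 each had the E-box CACGTG near the start site. The stretches around it, with the E-box in capitals, read as follows from 5′ to 3′ on the strand of the gene.
Ddx4, chr13:112652309-112652364, minus strand: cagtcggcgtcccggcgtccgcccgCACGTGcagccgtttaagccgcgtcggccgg
Stk31, chr6:49395459-49395514, plus strand: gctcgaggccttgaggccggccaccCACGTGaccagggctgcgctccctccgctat
Ddx25, chr9:35558421-35558458, minus strand: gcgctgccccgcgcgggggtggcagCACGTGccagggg

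The E-box is its own reverse complement and began 29 bases before the start site of Ddx4 and 37 bases after that of Ddx25. For Stk31, which has a pair of annotated start sites, it began 55 and 120 bases before them. CACGTG was present in 7.15% of all 32851 promoter windows and in none of the windows of Dazl, Elavl2 and Nanos2. Counted by gene, it was present in 3 of the 6 members, against 8.09% of all genes with a window. A second motif, TCCCGC on either strand, the core of E2F sites, was present in Ddx4, Ddx25 and 3 of the 6 Elavl2 windows, against 19.98% of all windows. Those 3 Elavl2 windows overlap one another, so the same site can count in each. By gene the motif was present in 3 of the 6 members, against 22.05% of all genes with a window. Each motif was searched on its own, whether or not its matches overlapped those of another. ACANTGT on either strand, taken as the core of the DM domain motif, had no match in the 12 windows and was present in 7.54% of all windows. The windows of Nanos2 and Dazl also differed in their count of CpG dinucleotides, with 0 in Nanos2 and 28 in Dazl. These motifs were chosen after the sequences were seen, and a match is a description of the letters, not evidence of binding. A link between the motifs and the array values was not tested.

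The 6 arrays were alike in overall level, with a median intensity between 14.6 and 14.8 on the linear scale used for all levels below. Dmrt1 followed the labels, with 48.4, 26.9 and 23.8 in null replicates 1, 2 and 3 and 696, 1030 and 796 in control replicates 1, 2 and 3. Every difference given is the mean log2 intensity of null testes less that of control testes, tested with limma. P-values were adjusted by Benjamini-Hochberg over 22082 probe sets, of which 6 were called at a threshold of 0.05. Dmrt1 was one of them, at -4.72 with a limma adjusted p of 0.00388. Testis markers were present in both groups, with Dhh of Sertoli cells at 794 to 1100 in null and 730 to 1020 in control testes, whereas Foxl2 of the ovary lay below the filter at 7.61 to 9.54 in null and 8.51 to 10.1 in control testes. The lists as a whole were less clear-cut. Of 13 Sertoli markers 12 passed the filter, all but Fshr. Of 7 granulosa and ovarian markers 6 passed, namely Wnt4, Rspo1, Bmp2, Irx3, Lhx9 and Fst. Lhx9 and Fst also serve in the testis or early gonad. Of these 6, 4 were higher and 2 lower in null testes, and limma called 0. Only Fst, at -0.58, had an unadjusted limma p under 0.05. For Actb, signal at the 3′ end exceeded that at the 5′ end 2.75-fold in null replicate 3, a sign of RNA or amplification quality, and 1.91-fold to 2.15-fold elsewhere. Only 3 arrays per group limit every comparison.

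No member was called. Of the 12 tested member probe sets limma called 0, against 0.0272% of all tested probe sets, and the adjusted p lay between 0.773 and 0.982. All 12 differences were negative, with a median of -0.30, against 48.1% negative and a median of 0.01 over all probe sets. Probe sets of 1 gene share a transcript, and counted by gene with the brightest probe set there were 6 negative differences of 6, with a median of -0.18. The groups did not overlap, with null lower, at 4 of the 12, all of them Elavl2, against 6.06% of all tested probe sets. At an unadjusted p under 0.05, limma gave 3 of the 12 as lower, again all Elavl2, against 3.28%. Control replicate 2 was the highest of the 6 arrays at all 12, and at 16.2% of all tested probe sets. Leaving it out therefore had to raise every difference, and 8 of the 12 were then negative, with a median of -0.10. Without control replicate 1, the lowest array at 5 of the 12, all 12 were negative, with a median of -0.50.

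**Figure D1:**
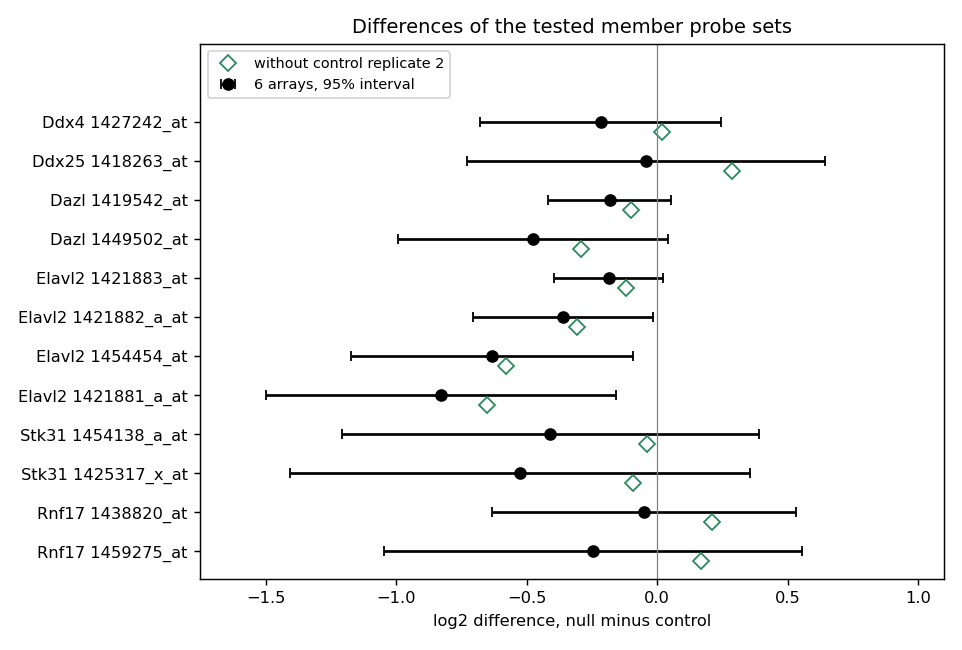
Log2 differences of null minus control (horizontal axis) for the 12 tested member probe sets. Black points with 95% confidence intervals use all 6 arrays, and open diamonds leave out control replicate 2. All black points lie left of 0, the intervals of 3 Elavl2 probe sets do not reach 0, and without control replicate 2 the points of Ddx4, Ddx25 and Rnf17 lie right of 0.

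Among the helicases, Ddx4 had intensities of 1870, 1540 and 1500 in null replicates 1, 2 and 3, and 1470, 2620 and 1760 in control replicates 1, 2 and 3. The groups overlapped, since control replicate 1 was the lowest array and control replicate 2 stood above all others. Its means were 1637 ± 203 in null and 1950 ± 598 in control testes (SD, n = 3 each). The difference was -0.22, standard error 0.20 (95% confidence interval -0.68 to 0.24, limma adjusted p = 0.832). The Ddx4 difference was 0.02 without control replicate 2, the highest array, and -0.40 without control replicate 1, the lowest.

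Ddx25, also called gonadotropin-regulated testicular helicase, is best known from Leydig cells and later spermatogenic cells. It gave 372, 276 and 373 in null replicates 1, 2 and 3, and 231, 549 and 331 in control replicates 1, 2 and 3. All null values lay inside the control range, whose ends were 2.38-fold apart. The difference was -0.04 with a standard error of 0.30 (95% confidence interval -0.73 to 0.64, limma adjusted p = 0.982), and 0.29 without control replicate 2.

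Dazl was measured by 2 probe sets, both tested. The brighter, 1419542_at, gave 3330, 2760 and 2790 in null replicates 1, 2 and 3, and 3030, 3750 and 3300 in control replicates 1, 2 and 3. Only null replicate 1 reached into the control range, and the highest and lowest of the 6 arrays were within 0.44 on the log2 scale. The difference was -0.18 with a standard error of 0.10 (95% confidence interval -0.42 to 0.05, limma adjusted p = 0.774). The dimmer Dazl probe set, 1449502_at, gave 111, 128 and 83.1 in null replicates and 124, 190 and 135 in control replicates. Here null replicate 2 reached into the control range. Its difference was -0.48 with a standard error of 0.22 (limma adjusted p = 0.773), and -0.29 without control replicate 2.

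**Figure D2:**
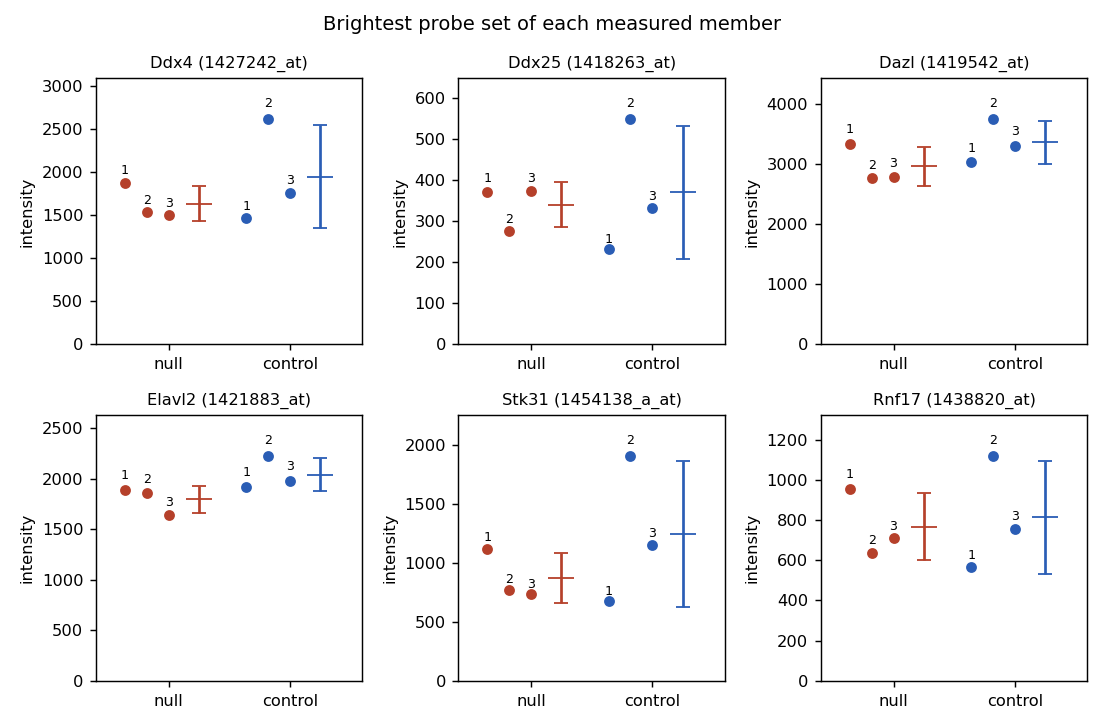
Intensities (vertical axis, linear from 0) of the brightest probe set of each of the 6 measured genes in 3 null and 3 control testes. Numbered points are replicates, and bars to their right are means with SD. Control replicate 2 is the top point in every panel, and the groups overlap in every panel but that of Elavl2.

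Elavl2 was the 1 member whose groups separated. The brightest of its 5 probe sets, 1421883_at, gave 1890, 1860 and 1640 in null replicates 1, 2 and 3, and 1920, 2230 and 1980 in control replicates 1, 2 and 3. Every null array lay below every control array, with null replicate 1 close to control replicate 1. The means were 1797 ± 137 in null and 2043 ± 164 in control testes (SD, n = 3 each), and the difference was -0.19 with a standard error of 0.09 (limma adjusted p = 0.773).

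The next probe set, 1421882_a_at, is of a type that matches several transcripts of a gene, as is 1421881_a_at below. Probe set 1421882_a_at gave 383, 462 and 327 in null replicates and 496, 534 and 463 in control replicates. Null replicate 2 and control replicate 3 nearly met there. The 2 dimmer tested probe sets were further apart. Probe set 1454454_at gave 87.5, 125 and 65.0 in null replicates and 132, 149 and 135 in control replicates. Probe set 1421881_a_at gave 43.7, 64.0 and 30.0 in null replicates, against 66.2, 99.6 and 71.3 in control replicates. In both, null replicate 3 was lowest, null replicate 2 was closest to the controls and control replicate 2 was highest.

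The differences of these 3 Elavl2 probe sets were -0.36, -0.63 and -0.83, with standard errors of 0.15, 0.23 and 0.29 and 95% confidence intervals of -0.71 to -0.02, -1.17 to -0.09 and -1.50 to -0.16 (limma adjusted p = 0.773 for each). On the fold scale the dimmest of them was 1.78-fold lower in null testes. The 4 probe sets thus shared a direction and differed in size, from -0.19 in the brightest to -0.83 in the dimmest tested. With 16 added to every intensity before the log, which damps dim values, the differences were -0.18, -0.35, -0.55 and -0.64 in the same order. The fifth probe set, 1433052_at, was not tested, at 2.76 to 3.19 in null and 2.63 to 3.28 in control testes. The files used here do not say which transcripts or which part of the gene each probe set reports.

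**Figure D3:**
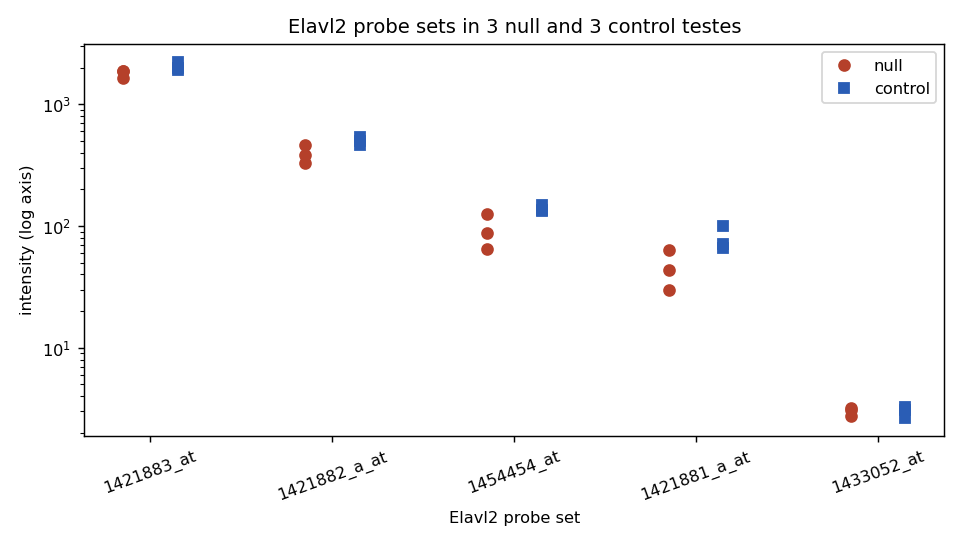
Intensities (vertical log axis) of the 5 Elavl2 probe sets, with null testes as circles and control testes as squares, 3 arrays each. The null circles lie below the control squares at the 4 brighter probe sets, and the groups overlap at 1433052_at, which is close to background.

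Null replicate 3 was the lowest array at all 4 tested Elavl2 probe sets, and it also had the highest 3′ to 5′ ratio of Actb. Without null replicate 3 the 4 Elavl2 differences were -0.12, -0.24, -0.40 and -0.56, and limma gave 0 of them at an unadjusted p under 0.05. Without control replicate 2 they were -0.12, -0.31, -0.58 and -0.65, again with 0 at that threshold. Without null replicate 2, conversely, they were -0.21, -0.49, -0.88 and -1.10. Null replicate 2 and control replicate 3 share the leading number of their descriptions. The labels do not say what that number means. Between these 2 arrays the differences were -0.09, -0.003, -0.11 and -0.16. The part of RNA quality in the Elavl2 values was not tested.

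Neurons also make Hu proteins, so neuronal markers were set beside Elavl2. Of 7 tested of 10, 6 were lower and 1 higher in null testes, with a median of -0.20, the direction of Elavl2, and limma called 0, also at an unadjusted p under 0.05. Elavl4, a neuronal Hu protein, had the smallest p at -0.56, followed by Dcx, a microtubule protein, at -0.45. The summed intensity of the 7 was 622 to 839 in null and 582 to 928 in control testes. Their level, as the median deviation from the mean of the 6 arrays, was 0.08, -0.43 and -0.09 in null replicates 1, 2 and 3 and -0.27, -0.03 and 0.85 in control replicates 1, 2 and 3. Elavl3, another Hu protein of neurons, was near background at 6.60 to 6.89 in null and 6.67 to 7.30 in control testes. Elavl4 was dim, with 18.2, 17.3 and 26.9 in null and 25.3, 24.2 and 44.7 in control replicates. The neuronal level peaked in control replicate 3 and Elavl2 in control replicate 2, and the part of neuronal RNA in the Elavl2 values was not tested.

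Of the tudor members, Stk31 varied more than Rnf17 at the brightest probe set of each. The brighter Stk31 probe set, 1454138_a_at, gave 1120, 772 and 733 in null replicates 1, 2 and 3, and 676, 1910 and 1150 in control replicates 1, 2 and 3. Its suffix is also that of the type that matches several transcripts of a gene. The control arrays spanned 2.83-fold, from the lowest to the highest value of the whole set, and enclosed all 3 null arrays. The difference was -0.41 with a standard error of 0.35 (95% confidence interval -1.21 to 0.39, limma adjusted p = 0.824). Without control replicate 2 it was -0.04, and without control replicate 1 it was -0.79. The second Stk31 probe set, 1425317_x_at, whose suffix marks possible binding to other transcripts, gave 774, 591 and 459 in null and 503, 1560 and 797 in control replicates, the same order of arrays apart from null replicate 3, and a difference of -0.52.

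Rnf17 had 4 probe sets, of which 2 were tested. The brightest, 1438820_at, gave 956, 638 and 709 in null replicates 1, 2 and 3, and 568, 1120 and 754 in control replicates 1, 2 and 3, so the null values lay within the control range. The difference was -0.05 with a standard error of 0.25 (95% confidence interval -0.63 to 0.53, limma adjusted p = 0.976), and 0.21 without control replicate 2. Probe set 1459275_at gave 37.4, 39.9 and 34.4 in null and 27.2, 78.1 and 40.3 in control replicates, with a difference of -0.25. The other 2 lay below the filter, at 8.6 to 18.2 in null and 11.3 to 31.6 in control testes, and were not tested.

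The members thus followed 2 patterns over the arrays. Ddx4, Ddx25, Stk31 and Rnf17 were highest in control replicate 2 and, at their brightest probe sets, lowest in control replicate 1, with log2 deviations from the mean of 0.54 to 0.95 and -0.26 to -0.57. Elavl2 also peaked in control replicate 2 but had all 3 controls above the mean and was lowest in null replicate 3. Dazl lay between them, with deviations of 0.25 in control replicate 2 and -0.05 in control replicate 1. In the 4 genes of the first pattern the spread among controls was as wide as or wider than the gap between the groups.

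**Figure D4:**
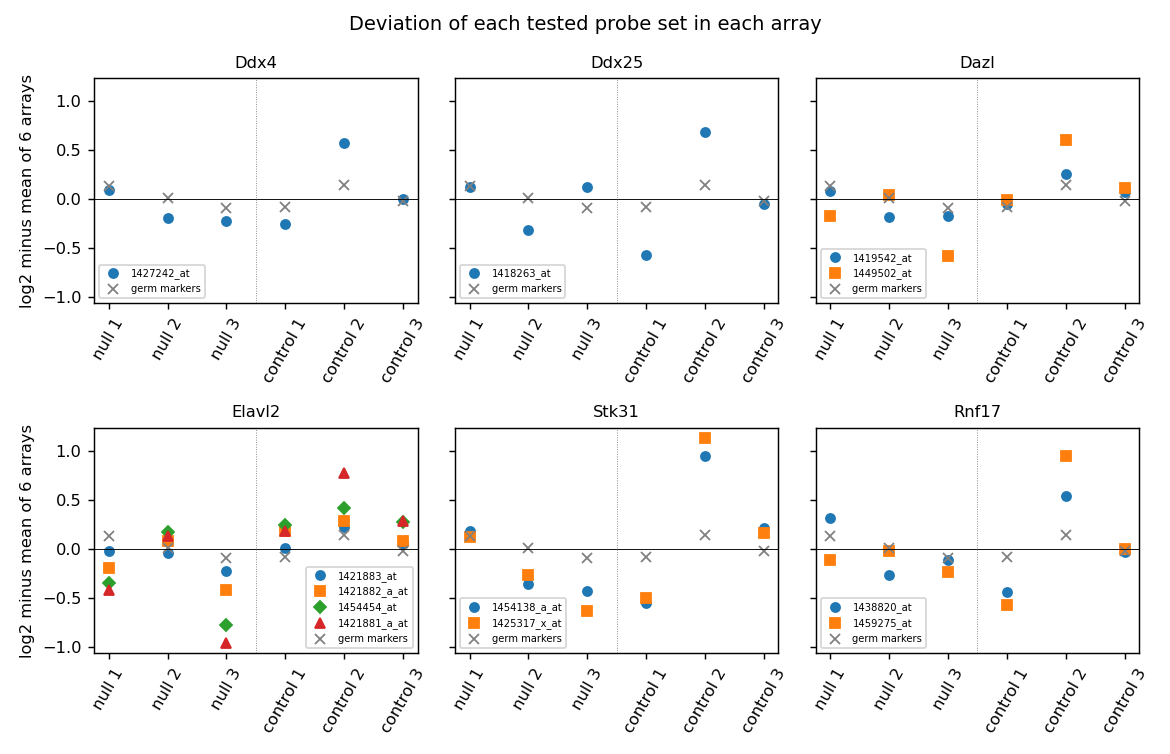
Deviation of log2 intensity from the 6-array mean (vertical axis) for each tested probe set of the 6 genes, by array. Grey crosses give the median of 17 other germ cell markers. Control replicate 2 is the highest array for every probe set, and control replicate 1 is low for Ddx4, Ddx25, Stk31 and Rnf17 but not for Elavl2.

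Other germ cell markers, none of them members, went both ways. Some single markers varied widely, but not all in the order of the members. Sycp3 of the meiotic axis ran from 360 to 452 in null and 389 to 1250 in control testes, and peaked in control replicate 2. Hormad1, another axis protein, ran from 254 to 749 in null and 288 to 679 in control testes, and peaked in null replicate 1. Tfap2c, taken up below, was lowest in control replicate 2, at 315. The median deviation of all 17 tested, in which opposite movements cancel, was 0.13, 0.01 and -0.09 in null replicates 1, 2 and 3 and -0.08, 0.14 and -0.02 in control replicates 1, 2 and 3. Of the 17, 7 were higher and 10 lower in null testes, 0 were called by limma, and 1 had an unadjusted p under 0.05, Tfap2c, a factor of early germ cells, at 1.00 (standard error 0.37, limma adjusted p = 0.773). Itga6, an integrin, was second by p at -0.16. Taken relative to this germ cell level, array by array, Ddx4 still overlapped between the groups, and so did Ddx25, Stk31 and Rnf17. On that relative log2 scale Elavl2 gave 10.75, 10.85 and 10.77 in null and 10.99, 10.98 and 10.97 in control replicates. Dazl gave 11.57, 11.42 and 11.54 in null and 11.65, 11.73 and 11.71 in control replicates. Neither gene overlapped between the groups there, null being lower. Over all tested member probe sets 6 of 12, those of Dazl and Elavl2, were lower without overlap on that scale, against 4.88% of all tested probe sets. The relative differences were -0.19 for both genes. With the germ cell level as a covariate in limma, 0 of the 12 member probe sets were called, and the lowest adjusted p was 0.355. That fit gave each probe set its own slope on the germ cell level, whereas the relative scale subtracted the level in full. With the covariate, 8 of the 12 were lower at an unadjusted p under 0.05, against 5.78% of all tested probe sets. These 8 were the tested probe sets of Elavl2, Dazl and Stk31, and none was of Ddx4, Ddx25 or Rnf17.

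Other cell types varied between the same arrays. Endothelial markers had levels of -0.51, 0.25 and 0.49 in null replicates 1, 2 and 3 and 0.37, -1.18 and 0.32 in control replicates 1, 2 and 3, so control replicate 2 was lowest. Fetal Leydig markers had levels of 0.96, -0.55 and -1.10 in null and -0.54, 0.62 and 0.60 in control replicates. The summed intensity of the 9 endothelial markers was 1681 to 3430 in null and 1183 to 3404 in control testes, and that of the 6 tested Leydig markers 3739 to 14662 and 4734 to 11645. Of the endothelial markers 8 were higher and 1 lower in null testes, with Kdr, a VEGF receptor, at -0.15 and Robo4 at 0.40 having the smallest p. Of the Leydig markers 1 was higher and 5 lower, with Nr0b2, a nuclear receptor, at 0.37 and Cyp17a1, a steroidogenic enzyme, at -0.62. Control replicate 2 and null replicate 1, low in endothelial transcripts, were the highest and second highest arrays at the brightest probe sets of Ddx4, Dazl and Rnf17. They were not for Ddx25, Elavl2 and Stk31, but some of these places were near ties. Null replicate 1 and control replicate 3 gave 3330 and 3300 for Dazl, and 1120 and 1150 for Stk31. For Ddx25, null replicates 1 and 3 gave 372 and 373. The split between the genes is therefore not firm. Of 12 tested Sertoli markers 8 were higher and 4 lower in null testes. At an unadjusted p under 0.05 limma gave 3 of them lower, Cst9 among them, and 1 higher. Cst9, a cystatin, was the 1 gene called in any list, at 1180, 860 and 1150 in null and 3040, 3460 and 2940 in control replicates (difference -1.58, limma adjusted p = 0.0271). Macrophage markers had levels of -0.10, -0.14 and -0.26 in null and -0.08, 0.06 and 0.47 in control replicates, all null arrays lying below all controls by a narrow margin. Of 9 tested macrophage markers 8 were lower and 1 higher in null testes, with a median of -0.21, 0 called by limma and 2 lower at an unadjusted p under 0.05, Mrc1, the mannose receptor, at -0.54 and Adgre1, the F4/80 antigen, at -0.40. Their summed intensity was 2230 to 2699 in null and 2597 to 3325 in control testes. The part of cell composition in the members' values was not tested.

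**Figure D5:**
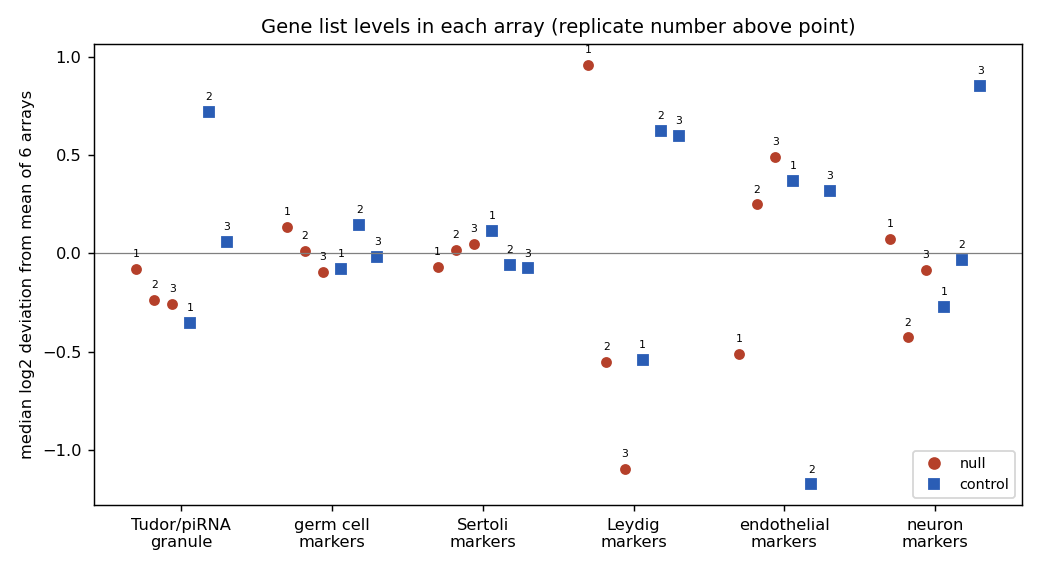
Median log2 deviation from the mean of the 6 arrays (vertical axis) of the genes of 6 lists, with null testes as circles and control testes as squares and the replicate number above each point. The tudor and piRNA genes are highest in control replicate 2, where endothelial markers are lowest, and the groups overlap in each of the 6 lists drawn.

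The partners of the members were followed through 5 gene lists, in which limma called 0 genes. Counts at an unadjusted p under 0.05 are given beside each. With Nanos2 not measured, the Nanos, Pumilio and deadenylation list had 15 of 18 genes tested, 10 lower and 5 higher in null testes, with a median of -0.03 and 1 gene lower at an unadjusted p under 0.05. That gene was Cnot6l, a catalytic deadenylase subunit, at 922, 1300 and 1090 in null and 1580, 1480 and 1300 in control replicates, a difference of -0.41 with a standard error of 0.14 (limma adjusted p = 0.773). Null replicate 2 equalled control replicate 3. Cnot9, another subunit of the complex, was at -0.21. Nanos1, a paralogue, gave 17.1 to 18.6 in null and 15.7 to 20.3 in control testes.

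The list of DAZ family and translation genes had 13 of 16 tested, 11 lower and 2 higher, with a median of -0.18 and 1 at an unadjusted p under 0.05. That was Ythdc2, a helicase needed for meiosis, at 407, 403 and 474 in null and 590, 556 and 469 in control replicates, a difference of -0.33 with a standard error of 0.13 (limma adjusted p = 0.773). Null replicate 3 reached into the control range. Lin28a, a binder of let-7 precursors made in primordial germ cells, was second by p at -0.48. Boll, a relative of Dazl, lay below the filter at 7.82 to 8.28 in null and 7.03 to 7.87 in control testes.

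In the Elavl and AU-rich element list 9 of 10 tested genes were lower and 1 higher, with a median of -0.04 and 0 at an unadjusted p under 0.05. Elavl1, the widely expressed Hu protein, gave 2140, 2440 and 2320 in null and 2580, 2570 and 2450 in control replicates. The groups did not overlap, by a narrow margin, and the difference was -0.14 with a standard error of 0.07 (limma adjusted p = 0.773). Zfp36l1, which destabilises AU-rich mRNAs, was at -0.11, also without overlap. Elavl2 at -0.19 was therefore close in size to Elavl1 at the brightest probe set of each.

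Of 13 tested DEAD-box helicases outside the members, 9 were lower and 4 higher, with a median of -0.02 and 1 higher at an unadjusted p under 0.05, Ddx39a, an mRNA export factor, at 0.13. Ddx19b was second by p at -0.48, with 44.5, 42.8 and 45.9 in null and 47.3, 82.2 and 61.2 in control replicates.

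Tudor and piRNA granule genes were 14 lower and 2 higher of 16 tested, with a median of -0.25, and 2 were lower at an unadjusted p under 0.05. Piwil2, a PIWI protein of fetal germ cells, gave 801, 941 and 674 in null and 929, 1740 and 1100 in control replicates, a difference of -0.60. Tdrd5, a tudor protein of piRNA granules, gave 97.7, 54.2 and 50.3 in null and 71.7, 435 and 165 in control replicates, a difference of -1.42. In both, control replicate 1 lay below a null array, and the limma adjusted p was 0.773. The list level was -0.08, -0.24 and -0.26 in null replicates 1, 2 and 3 and -0.35, 0.72 and 0.06 in control replicates 1, 2 and 3, the same order of arrays as Stk31 at its brighter probe set.

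The genes nearest to each member over the arrays were found by the root mean square difference of centred log2 values, divided by the member's SD, among 19986 probe sets of other genes over 6 arrays. Smaller values mean closer profiles, and with so many candidates and 6 arrays they are a description only. Nearest to Ddx4 were Btg2, an antiproliferative partner of deadenylases, at 0.11, and Mov10l1, a helicase of piRNA production, at 0.17. Nearest to Stk31 were the germ cell genes Tex14 at 0.13 and Tex13b at 0.14. Uba1y, a Y-linked ubiquitin-activating enzyme, at 0.09 and Epb41l4b at 0.20 came closest to Ddx25. C1qtnf4 at 0.15 and Depdc7 at 0.17 were closest to Rnf17. For Elavl2 these were Sfswap, a splicing regulator, at 0.07 and Pias2, a SUMO ligase, at 0.18. For Dazl they were Cept1, an enzyme of phospholipid synthesis, at 0.17 and Kat2a, a histone acetyltransferase, at 0.18.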

How the data were processed

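Total RNA of fetal gonads was amplified with the NuGen Ovation kit, biotin-labelled and hybridised to oligonucleotide arrays, per the labels' protocols. The authors deposited linear intensities, made with GCRMA, per the submitters' processing notes, so dim values depend on its background model. Probe sets were named from GEO's platform annotation, which gave 34958 of 45101 exactly 1 symbol.

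Arrays were grouped by title. Intensities were taken to log2 and probe sets with a mean of at least 4 were fitted with limma 3.58.1 in R 4.3.3 (group only, eBayes with intensity trend, two-sided, Benjamini-Hochberg over 22082 probe sets). The code was tested on simulated data. The members and gene lists were chosen with earlier results of these data known. Named were all members, Dmrt1, from each list reported called genes or else the 2 of smallest p, and the 2 nearest profiles per gene. Elavl3, Nanos1, Boll, Dhh, Fshr, Foxl2, Wnt4, Rspo1, Bmp2, Irx3, Sycp3 and Hormad1 were named after their values were seen.

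Alternatives changed the filter, the normalization, the added constant, the variance model, the array weights, the probe set choice, the replicate block, the germ cell covariate and single arrays left out. Between same-numbered replicates, deviations from group means correlated at -0.59, -0.34 and 0.14 for numbers 1, 2 and 3. With 3 arrays per group such correlations depend on one another, so they cannot show whether a shared number marks a pair. A further number in the descriptions runs from 1 to 3 in null and 4 to 6 in control samples, with no meaning stated in the labels, so it cannot be told apart from the groups.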

Additional observations from a re-analysis of the deposited data

How the results depend on the processing

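Of the tested member probe sets none was called under the 11 alternatives run on each, or with single arrays left out, the lowest limma adjusted p being 0.355, and no member was called on means over its probe sets. Of the 12, 2 fell below the stricter filter and 1 was left out with the _x_at sets. The differences of the 6 brightest member probe sets kept their negative sign in all 72 values from the 12 alternatives other than leaving out arrays. With 1 array left out, 31 of 36 kept it and 5 turned positive. The differences then ranged from -0.40 to 0.018 for Ddx4, from -0.34 to 0.29 for Ddx25 and from -0.28 to 0.21 for Rnf17, positive without control replicate 2 for each, and also without null replicate 2 for Ddx25 and Rnf17. They ranged from -0.79 to -0.04 for Stk31, from -0.27 to -0.10 for Dazl and from -0.23 to -0.12 for Elavl2. Averaging the probe sets of a gene gave -0.50 for Elavl2, -0.33 for Dazl and -0.15 for Rnf17, against -0.19, -0.18 and -0.05 at the brightest of each.

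The 6 calls over all probe sets were 1 without the intensity trend, 3 without probe sets ending in _x_at or _s_at (fewer were tested), 12 with the germ cell covariate and 0 to 5 with single arrays left out. With the replicate block limma called 0, and the Dmrt1 difference of -4.72 had an adjusted p of 0.200. No null array correlated best with the control array of its own number, and null replicate 1 did so with control replicate 2, at 0.58. As these correlations depend on one another, they cannot show whether the replicate block is the right model. Without single arrays Dmrt1 ranged from -5.03 to -4.52, and its limma adjusted p was 0.0556 without control replicate 3. The causes were not tested. Signal near background limits Rnf17 and Elavl2 probe sets below the filter.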
